A study of Mus musculus with 18 samples.

Results

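The 5 rows of the miRNA table of this mammary tumour panel, miR-142-3p, miR-142-5p, miR-150, miR-155 and miR-223, are miRNAs of blood-derived cells and are described here across 18 mouse strains. They were chosen by name among mature miRNAs, with the rows of minor arms (written with an asterisk) left out, and make up 5 of 583 rows. All 5 of 5 had a mean level of 10 CPM (counts scaled to a common library size) or more and were tested, as were 281 rows in all. miR-142-3p and miR-142-5p are treated as pan-leukocyte, miR-150 and miR-155 as lymphoid and miR-223 as myeloid.

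Each library came from mammary tumours of F1 mice that had 1 parent from an AKXD recombinant inbred strain and the other from the FVB/N-TgN(MMTV-PyVT)634Mul line. AKXD strains are inbred mosaics of the AKR/J and DBA/2J genomes. All 18 groups carried the polyoma middle T transgene under the mouse mammary tumour virus promoter, which drives tumours in mammary epithelium, so no group was free of it. Tumour RNA of a strain was pooled into 1 library, and neither the ages of the mice nor the number of tumours in a pool was stated in the labels. With n = 1 per strain, no strain was tested against another, and p-values below measure only the spread between these 18 libraries.

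A miRNA is cut from a hairpin precursor and guides repression of transcripts through its seed, the bases near its 5′ end. The miR-142 hairpin is transcribed in nearly all blood cell lineages and yields a product from each arm. miR-150 is abundant in mature B and T lymphocytes, miR-155 is induced when lymphocytes and macrophages are activated, and miR-223 is a miRNA of neutrophils and other myeloid cells. A tumour homogenate holds RNA of infiltrating blood cells beside that of tumour cells, and in such bulk RNA fewer cells of a type and less RNA per cell cannot be told apart.

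The mature sequences below show that the 4 members printed carry unrelated seeds, which does not settle how reads were assigned. Capitals mark the seed, bases 2 to 8. They are printed 5′ to 3′ from RefSeq (GRCm38.p6), which had an entry for 4 of the 5 members. miR-150 is given by name only.

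miR-142-3p: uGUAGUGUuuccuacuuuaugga

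miR-142-5p: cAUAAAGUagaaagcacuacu

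miR-155: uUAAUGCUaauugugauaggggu

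miR-223: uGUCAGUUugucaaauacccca

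The 4 seeds differed, and 0 other mature mouse entries of that table shared any of them. The next sequence is the miR-142 hairpin, shown because it yields 2 of the members. Capitals mark the 5p product first and the 3p product second.

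miR-142 hairpin: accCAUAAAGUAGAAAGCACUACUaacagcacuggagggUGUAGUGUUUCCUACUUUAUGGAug

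It lies at chr11:87756864-87756927 on the plus strand (GRCm38), in an intron of the long noncoding RNA Mir142hg, with Mir142b annotated on the opposite strand. Mir155 lies at chr16:84714140-84714204, in an exon of Mir155hg. Mir223 lies at chrX:96242817-96242926, in an exon of F630028O10Rik, and Mir150 lies on chromosome 7 outside other annotated genes. These positions are from the reference annotation, since the deposited table has none.

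The libraries held 4357342 to 14946532 reads on miRNAs. They were scaled by the trimmed mean of M values (TMM), with factors between 0.671 in strain 14 and 1.67 in strain 28. A few libraries stood apart from the rest. On the first principal component of the other tested miRNAs, which held 28.34% of the variance, strains 10, 13, 14 and 20 lay at -12.65 to -6.90 and the next, strain 23, at -2.36. Strain 28 had miR-21, an abundant tumour miRNA, at 274 CPM against a panel median of 69864. Calls lost without strains 10, 13, 14 and 20 are given as such beside the results.

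The pan-leukocyte miRNAs were highest in strain 27, and miR-142-3p was lowest in strain 10. miR-142-3p ranged from 1361 CPM in strain 10 through a median of 4305 to 17104 in strain 27, a 12.6-fold range. Strain 11 came next at 11239 CPM, and strain 28 was the third at 6417 CPM. The order below strain 27 moved with the scaling, since strain 28 was second and strain 11 the third, at 9556 CPM, with total reads alone, and strain 14 was the third with upper-quartile scaling. Counting error was smaller than each of the 17 steps of the TMM order, with 0 pairs of neighbouring strains whose 95% Poisson intervals overlapped. These intervals hold counting error alone, because reads copied in PCR count as separate reads. They also leave out the rounding of the deposited log2 values to 2 decimals, an error of up to 0.35%. Strains 13 and 20 were apart by less than that, with a lower bound of 1959.81 CPM and an upper bound of 1959.27 CPM, so their order is not resolved. The 5p product, miR-142-5p, ranged from 99.7 CPM in strain 10 through 128 to 542 in strain 27. The 4 highest libraries were far above the rest for it, with strain 14 at 425, strain 11 at 379 and strain 2 at 330 CPM beside strain 27. Below them lay a crowded floor. Strain 10 was lowest with TMM and total reads, strain 25 with median-of-ratios and strain 13 with upper-quartile scaling, and 11 of the 17 neighbouring pairs overlapped in their intervals.

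**Figure D1:**
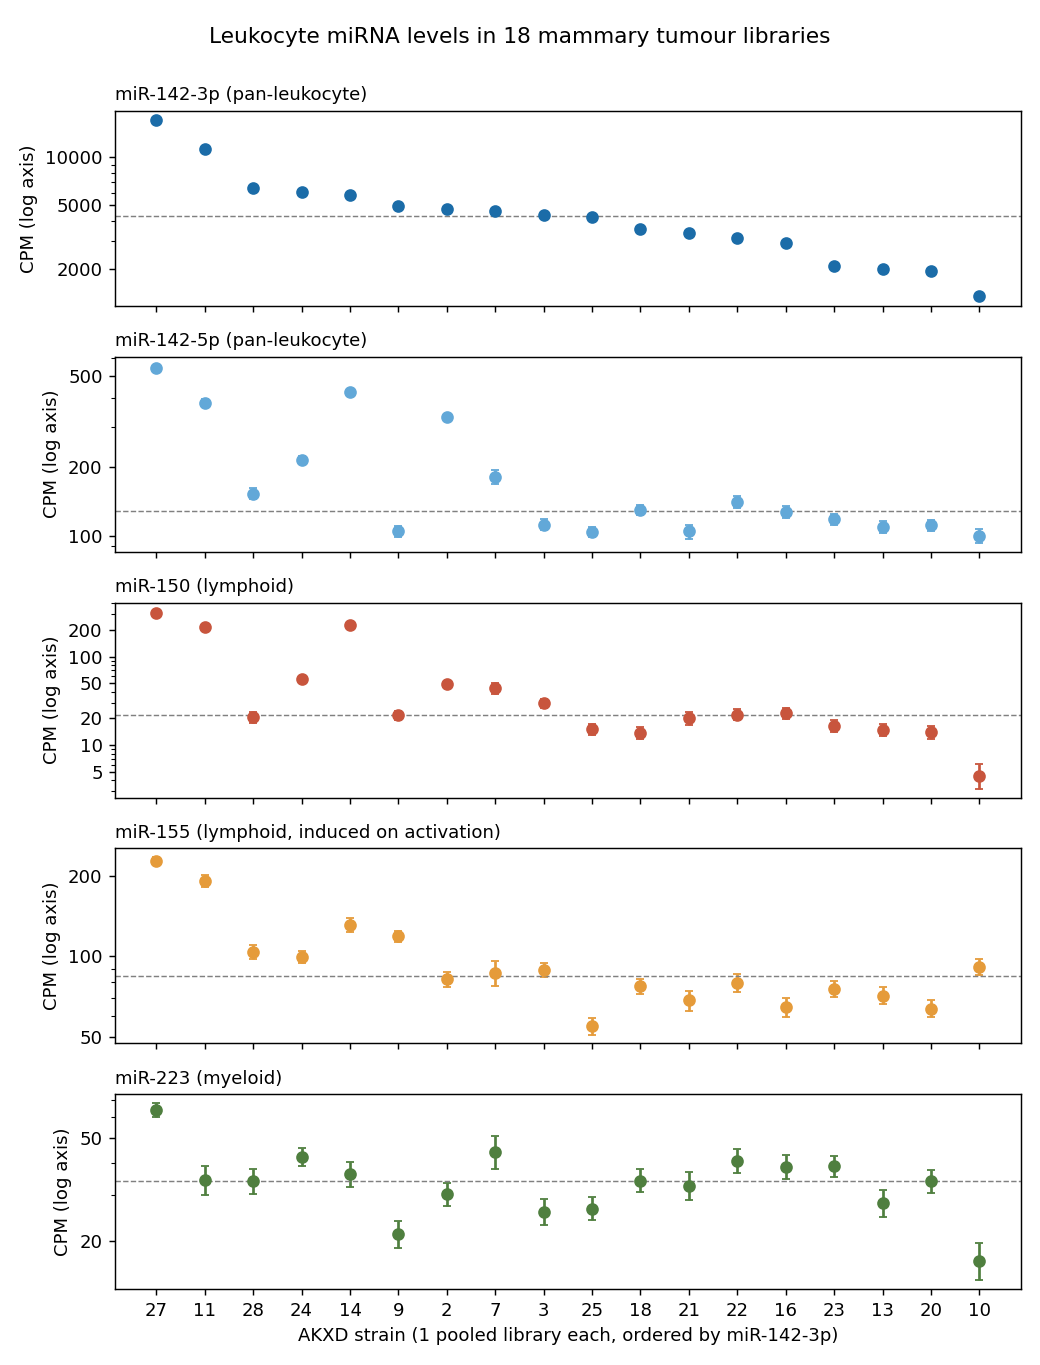
Levels of the 5 leukocyte miRNAs (CPM, log axis) in the 18 pooled libraries, ordered by miR-142-3p, with 95% Poisson intervals and the panel median as a dashed line. Strain 27 is highest in every panel, and miR-150 stands out in strains 27, 11 and 14.

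The lymphoid miRNA miR-150 varied most among the members. It was read 39 times in strain 10, which is 4.53 CPM, and it reached 313 CPM in strain 27, around a median of 21.9. Strains 11, 14 and 27 lay at 215, 226 and 313 CPM, and the other 15 libraries lay between 4.53 and 55.3 CPM, so that these 3 did not overlap with the rest. They were the top 3 under each of the 4 scalings tried. Its minor arm, miR-150*, had 18, 20 and 55 reads in strains 11, 14 and 27 and at most 7 elsewhere. In log2(CPM + 1) the SD of miR-150 over the strains was 1.55, the 6th largest of 281 tested miRNAs, whose median SD was 0.45.

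The activation-linked miR-155 ranged from 54.8 CPM in strain 25 through 84.3 to 226 in strain 27. Strain 11 came next, at 191 CPM, and strain 14 at 131 CPM, though with total reads alone strain 28 was second and strain 14 was not in the top 3. Strain 10, the lowest library for miR-142-3p, miR-150 and miR-223 under each of the 4 scalings, held miR-155 at 91.2 CPM. This was above the median with TMM, median-of-ratios and upper-quartile scaling, and below it with total reads alone, at 65.1 against 86.9 CPM. The log2 SD of miR-155 was 0.53.

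The myeloid miR-223 varied about as much as a typical tested miRNA. It ranged from 16.7 CPM in strain 10 through 34.1 to 63.6 in strain 27. Its log2 SD of 0.41 was 159th of 281, beside the median SD of 0.45. Without strains 11, 14 and 27 its SD was 0.373, above the 0.292 of miR-155. Strains 11 and 14, where miR-150 was high, held miR-223 at 34.2 and 36.3 CPM with TMM, close to its median. With total reads alone strain 14 was the third lowest library for it. For miR-223, 16 of the 17 neighbouring pairs overlapped in their counting intervals, against 13 for miR-155 and 12 for miR-150. Most of the order of strains below strain 27 is thus not resolved for miR-223 at this depth.

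Strain 27 was the highest library for all 5 members under each of the 4 scalings. The 5 members together made up 1.90% of its reads, against 0.112% in strain 10.

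Ratios of reads within a library do not depend on how libraries are scaled. They are compared between strains and are not ratios of molecules. miR-150 over miR-223, a lymphoid over a myeloid miRNA, was 6.28, 6.23 and 4.92 in strains 11, 14 and 27. In the other 15 libraries it lay between 0.272 in strain 10 and 1.61 in strain 2. Strains 11, 14 and 27 were picked out by high miR-150, the numerator here, so this separation restates that choice and adds no separate support. miR-155 over miR-223 grouped the strains in another way: it was 5.58 in strain 9, 5.58 in strain 11 and 5.46 in strain 10, around a median of 2.46, and was lowest in strain 16, at 1.67. Strain 10 was thus at the bottom of the first ratio and near the top of the second. miR-155 over miR-142-3p was 0.0670 in strain 10, around a median of 0.0211, and fell to 0.0130 in strain 25.

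**Figure D2:**
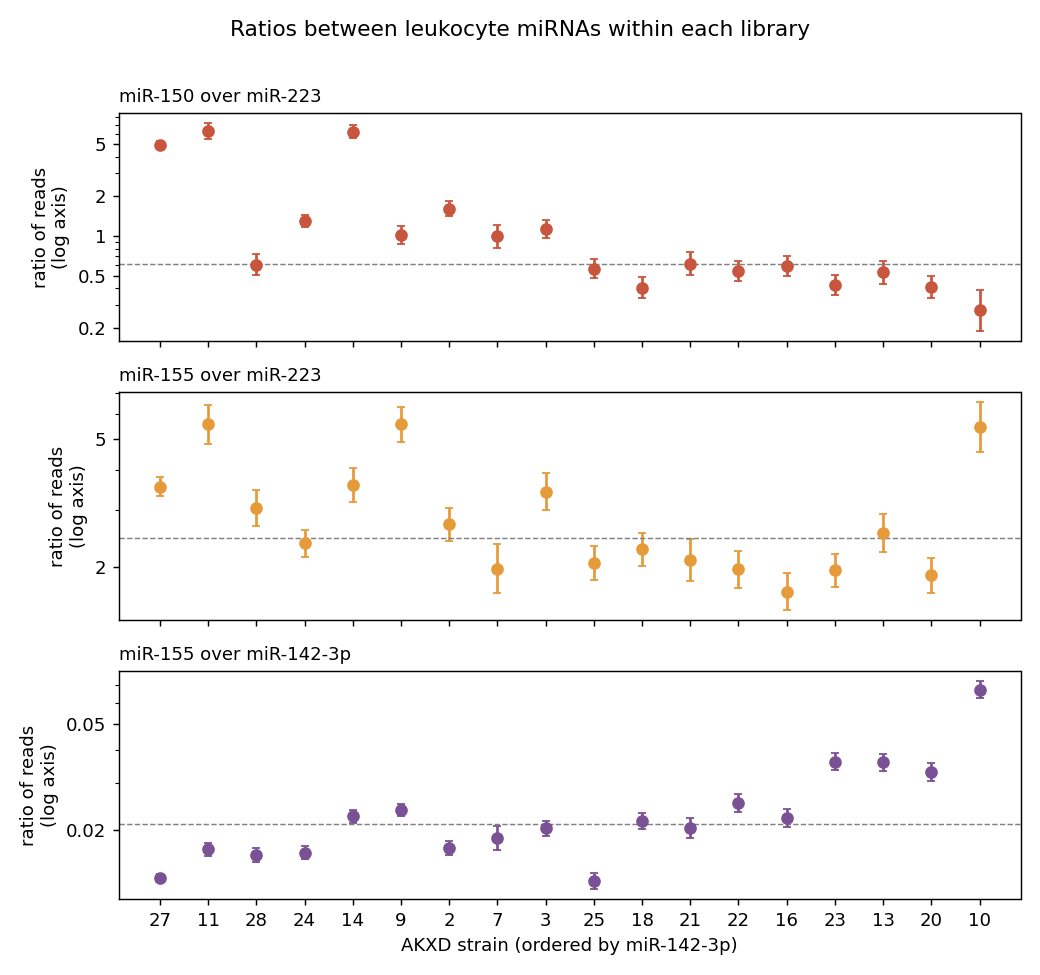
Ratios of reads (log axes) of miR-150 over miR-223, miR-155 over miR-223 and miR-155 over miR-142-3p in each library, ordered by miR-142-3p, with counting intervals and the median as a dashed line. Strains 27, 11 and 14 stand apart in the top panel at 4.92 to 6.28, and strain 10 in the bottom panel at 0.0670.

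The miR-142 arms did not keep 1 ratio. miR-142-3p over miR-142-5p was 13.6 in strains 10 and 14, 26.6 at the median and 47.5 in strain 9. The 4 libraries apart on the first component lay at 13.6 to 18.3, and strains 2 and 23, which are not among them, lay at 14.4 and 17.6. The fit of all other miRNAs on the log2 arm ratio was chosen after these values were seen. limma called 39 of 279 rising with it (14.0%) and 29 falling (10.4%). When strains 10, 13, 14 and 20 were left out, 3 rose and 0 fell. With the first component as a covariate 18 rose and 10 fell, and with total reads alone 107 rose and 2 fell.

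**Figure D3:**
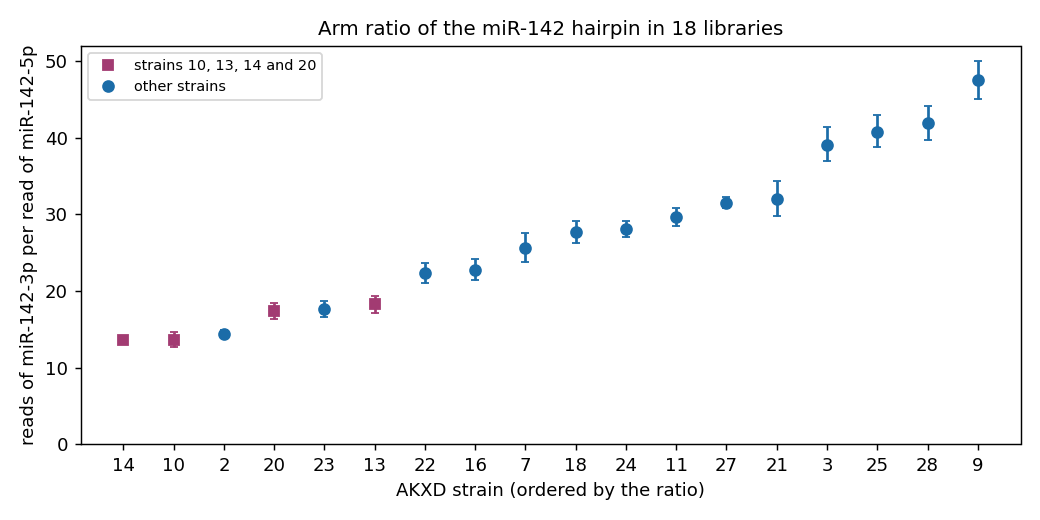
Reads of miR-142-3p per read of miR-142-5p in each library, with counting intervals, strains ordered by the ratio. Squares are strains 10, 13, 14 and 20, which lie at 13.6 to 18.3, while the highest strain, 9, lies at 47.5.

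Whether the members were high in the same strains was asked by regressing every other tested miRNA on each member with limma, adjusting by Benjamini-Hochberg over all 280. Permutation p-values of r and rho are two-sided, from 100000 resamples, and 10 pairs of members were compared, each in the fit on the member named first. On TMM-scaled levels over all 18 libraries, the lymphoid and pan-leukocyte members were called with each other, and miR-223 was called with none of them. Of the 4 other members, 3 rose with miR-142-3p, where 4.29% of all 280 miRNAs rose. Of 4, 3 also rose with miR-142-5p (1.79% of all), with miR-150 (3.21%) and with miR-155 (1.43%), and 0 rose with miR-223 (1.07%). The last count turned with the scaling: with total reads alone, all 4 of the 4 others rose in the fit on miR-223, among 106 of 281 miRNAs (37.7%). When ranks replaced the log2 values in the same limma fit, as planned, no pair passed, with adjusted p-values of 0.102 to 0.362 for the 6 pairs called on log2 values. Ordinary least squares on the ranks, added after that was seen, passed 4 of the 6. At an unadjusted limma p under 0.05, 63 of the 280 miRNAs passed for miR-223, and 3 of the 4 other members, all but miR-155, were among them.

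miR-142-5p and miR-150 were the closest pair. Pearson's r was 0.929 (permutation p = 1e-05, the smallest the resamples can give), Spearman's rho was 0.818 (permutation p = 9e-05) and the limma adjusted p was 4.05e-07. Without the 2 libraries farthest from the median of miR-142-5p, strains 14 and 27, r was 0.855. Over the 15 libraries other than strains 11, 14 and 27, r was 0.746 and the limma adjusted p was 0.149.

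miR-142-3p and miR-150 had r = 0.856 (permutation p = 1e-05) and rho = 0.781 (permutation p = 0.00023), with a limma adjusted p of 0.00024. Without the 2 farthest libraries, strains 10 and 27, r was 0.738. Over the 15 libraries r was 0.758 with a limma adjusted p of 0.00827, so this pair passed the threshold without the 3 strains high in miR-150. That r was close to the 0.746 of miR-142-5p with miR-150 there. In the fit on miR-150 over these libraries, the limma adjusted p was 0.0497 for miR-142-3p and 0.0759 for miR-142-5p.

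The other pairs of these 4 members rested more on single libraries. miR-142-3p with miR-155 had r = 0.784 (permutation p = 0.00018), rho = 0.754 (permutation p = 0.00051) and a limma adjusted p of 0.00548. r was 0.795 without the 2 farthest libraries. Without strain 27 alone the limma adjusted p was 0.090, and over the 15 libraries r was 0.422 (limma adjusted p = 0.311).

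The 2 arms of miR-142 had r = 0.777 (permutation p = 7e-05), rho = 0.715 (permutation p = 0.00138) and a limma adjusted p of 0.00379. r was 0.668 without the 2 farthest libraries, the limma adjusted p was 0.0687 without strain 27, and over the 15 libraries r was 0.522 (limma adjusted p = 0.141). The products of 1 hairpin were thus less closely related over these strains than miR-142-5p and miR-150 were in size of r. That difference was not tested.

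miR-150 with miR-155 had r = 0.790 (permutation p = 0.00028), rho = 0.635 (permutation p = 0.00569) and a limma adjusted p of 0.00827. Without the 2 farthest libraries r was 0.646, and over the 15 libraries it was 0.246 (limma adjusted p = 0.68). miR-142-5p with miR-155 had r = 0.771 (permutation p = 0.0005), rho = 0.602 (permutation p = 0.00977) and a limma adjusted p of 0.0114, with r = 0.602 without the 2 farthest libraries. Without strain 27 these 2 pairs had limma adjusted p-values of 0.161 and 0.390, and miR-142-5p with miR-155 had 0.0744 without strain 11. Without strains 10, 13, 14 and 20, miR-142-5p with miR-155 had 0.0672 in the fit on miR-142-5p and 0.0355 in the fit on miR-155. The calls of miR-155 with both thus rest on the strains where miR-150 was highest.

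**Figure D4:**
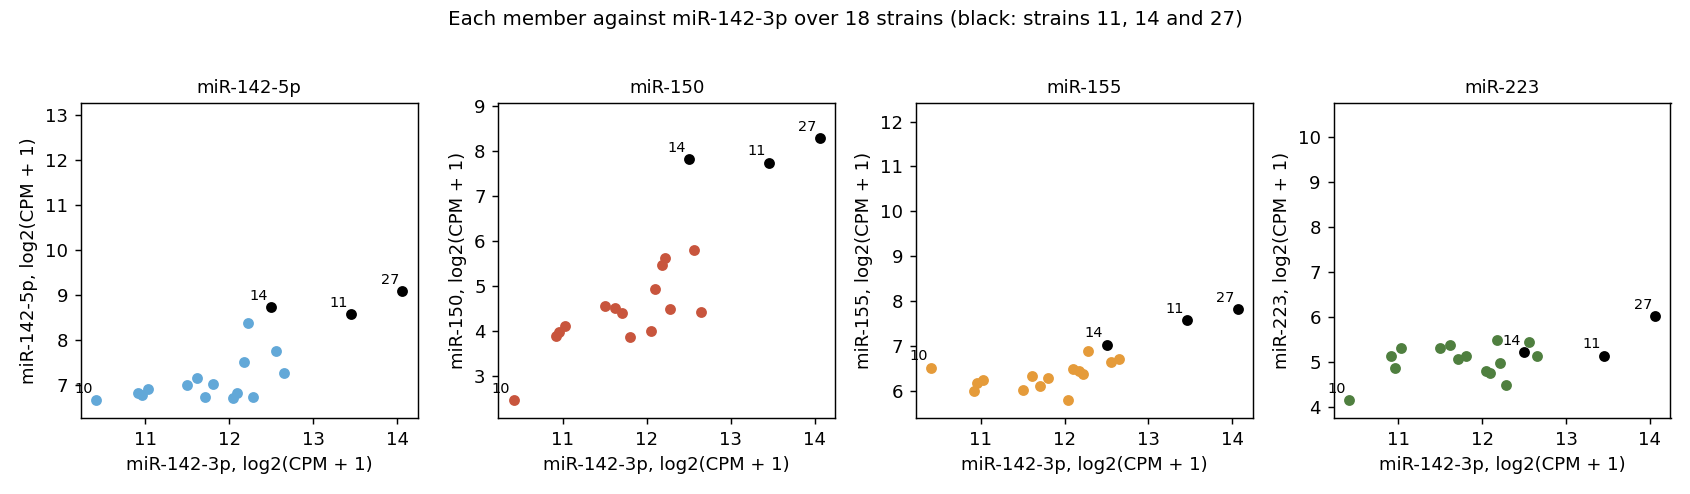
miR-142-5p, miR-150, miR-155 and miR-223 against miR-142-3p, all in log2(CPM + 1), 1 point per strain, with strains 11, 14 and 27 in black and every vertical axis spanning the same range of log2 units. miR-150 climbs most steeply (r = 0.856), and miR-223 is nearly flat but for strains 10 and 27 (r = 0.531).

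miR-223 had r between 0.322 and 0.615 with the other members. Over the 15 libraries other than strains 11, 14 and 27, r was 0.593 with miR-150 and 0.438 with miR-142-5p. It was 0.303 with miR-142-3p and -0.201 with miR-155, and none passed limma there. Those with miR-150 and miR-142-5p lay above the r of miR-155 with the same members over these libraries, 0.246 and 0.261. The set of pairs called thus depends on strains 11, 14 and 27. With miR-150 it had r = 0.615 (permutation p = 0.00684), rho = 0.540 (permutation p = 0.0229) and a limma adjusted p of 0.152, with r = 0.468 without the 2 farthest libraries. With miR-142-5p, r was 0.576 (permutation p = 0.0113), rho was 0.719 (permutation p = 0.00089) and the limma adjusted p was 0.281, and r was 0.389 without the 2 farthest libraries. With miR-142-3p, r was 0.531 (permutation p = 0.0237), rho was 0.333 (permutation p = 0.175) and the limma adjusted p was 0.133. Without strains 10 and 27 the last r was -0.02, so that this relation rests on those 2 libraries. With total reads alone it passed, at a limma adjusted p of 0.0117. In the fit on miR-223 with that scaling, the limma adjusted p was 0.00344 for miR-142-3p, 0.0169 for miR-142-5p, 0.0461 for miR-150 and 0.0461 for miR-155. With miR-155, r was 0.322 (permutation p = 0.191), rho was 0.201 (permutation p = 0.422) and the limma adjusted p was 0.794, and r was -0.027 without strain 27.

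On TMM-scaled levels, 16 non-members rose with at least 1 member, 3 with at least 2 and 2 with at least 3. Without strains 10, 13, 14 and 20, limma called 0 non-members rising and 0 falling with any of the 5. miR-215, which is among the 16, the 3 and the 2, was below the level filter there, so its calls were not retested. Of the other members, 3, 2, 3, 3 and 0 still rose there with miR-142-3p, miR-142-5p, miR-150, miR-155 and miR-223. With fewer libraries a call is also harder to reach. When the first principal component was instead a covariate over all 18 libraries, 4, 3, 8, 2 and 1 non-members rose with the members in that order. There 0, 1, 1, 0 and 4 fell. With total reads alone, 62 non-members rose with miR-142-3p and 102 with miR-223, and without strains 11, 14 and 27 they were 26 and 11. The counts also depend on single libraries. The 12 miRNAs rising with miR-142-3p became 4 without strain 27, 5 without strain 10 and 22 without strain 14. The 9 rising with miR-150 became 2, 4 and 5 without the same strains in turn, and the 4 rising with miR-155 became 0 without strain 27. The 5 rising with miR-142-5p became 1 without strain 27, 2 without strain 11 and 3 without strain 2 or strain 13. The sequences of miR-215, miR-29c and miR-182 are shown because each was high or low in the same strains as several members, with the seed in capitals.

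miR-215: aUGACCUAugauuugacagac

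miR-29c: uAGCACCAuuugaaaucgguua

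miR-182: uUUGGCAAugguagaacucacaccg

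miR-126-5p, a product of an endothelial miRNA gene, rose with miR-142-3p, miR-142-5p and miR-150. With miR-142-3p its r was 0.889 (permutation p = 1e-05), its rho was 0.827 (permutation p = 5e-05) and its limma adjusted p was 0.000377. It passed over the 15 libraries (r = 0.838, limma adjusted p = 0.00695) and did not without strains 10, 13, 14 and 20 (r = 0.813, limma adjusted p = 0.0573). There the limma adjusted p was 0.185 with miR-142-5p and 0.282 with miR-150. With the first component as a covariate it was 0.00203 with miR-142-3p, 0.00413 with miR-142-5p and 0.00692 with miR-150. r with miR-142-3p was 0.795 without the 2 farthest libraries. Without strain 27 the limma adjusted p was 0.00513 with miR-142-3p, and 0.390 and 0.215 with miR-142-5p and miR-150. Its levels ran from 739 CPM in strain 10 to 2260 in strain 27. The other arm, miR-126-3p, was called with none of the members in limma, and of the 2 endothelial rows 1, 2, 1, 1 and 1 passed an unadjusted p under 0.05 with miR-142-3p, miR-142-5p, miR-150, miR-155 and miR-223. Of all 280 miRNAs, 72, 21, 28, 16 and 63 did.

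miR-215, which shares its seed with miR-192, stood at 21.6, 33.1 and 25.0 CPM in strains 11, 14 and 27 and between 2.48 and 12.6 CPM in the other 15. Its mean of 10.0 CPM passed the filter only through those 3 strains, where miR-150 is high as well. It is therefore given as levels, although it is among the 16 counted above, with miR-142-5p, miR-150 and miR-155.

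miR-29c, a miRNA known to target collagen transcripts, rose with miR-142-3p and miR-150, and its seed mates miR-29a and miR-29b rose with miR-142-3p. With miR-142-3p, miR-29c had r = 0.842 (permutation p = 4e-05), rho = 0.791 (permutation p = 0.0002) and a limma adjusted p of 0.000918. Over the 15 libraries it had r = 0.869 (limma adjusted p = 0.00247), and without strains 10, 13, 14 and 20 it had r = 0.739 (limma adjusted p = 0.289). There the limma adjusted p was 0.396 for miR-29a and 0.559 for miR-29b. With the first component as a covariate that of miR-29c was 0.00625 with miR-142-3p and 0.00692 with miR-150. With miR-142-3p it was then 0.0563 for miR-29a and 0.210 for miR-29b. Without strain 27 the limma adjusted p of miR-29c was 0.00513 with miR-142-3p and 0.215 with miR-150, that of miR-29a was 0.0305 and that of miR-29b was 0.0687. miR-29c ran from 19.6 CPM in strain 10 to 102 in strain 27. miR-193, miR-322, miR-136, miR-376b* and miR-29a* completed the 9 non-members rising with miR-142-3p. With miR-150 the others were miR-144, miR-378* and miR-708.

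miR-223 was followed by other miRNAs. miR-720, a row whose sequence is also read as a transfer RNA fragment, had r = 0.743 (permutation p = 0.00113), rho = 0.787 (permutation p = 0.00025) and a limma adjusted p of 0.0244, and the muscle miRNAs miR-133b and miR-133a rose as well (limma adjusted p = 0.0244 and 0.0331). Without strains 10, 13, 14 and 20 the limma adjusted p was 0.234 for miR-720 and 0.428 for both others. With the first component as a covariate it was 0.0843 for miR-720, 0.0903 for miR-133b and 0.111 for miR-133a. The count of 3 rising with miR-223 was 0 without strain 9 or strain 10, 6 without strain 25, 8 without strain 27 and 106 when scaled by total reads alone. miR-133a ran from 23.3 CPM in strain 10 to 713 in strain 24.

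The epithelial cluster miRNA miR-182 was the one non-member that fell with 3 members. 0.357% of the 280 miRNAs fell with miR-142-3p, 0.357% with miR-150 and 0.714% with miR-223, and miR-182 was in each count. With miR-223 its r was -0.79 (permutation p = 0.00034), its rho was -0.58 (permutation p = 0.0138) and its limma adjusted p was 0.0206, and r was -0.44 without the 2 farthest libraries. It ran from 5681 CPM in strain 27 to 31438 in strain 10. Without strain 27 its limma adjusted p was 0.128 with miR-142-3p, 0.530 with miR-150 and 0.0352 with miR-223. Without strains 10, 13, 14 and 20 it was 0.428, 0.282 and 0.234, and with total reads alone 0.0954, 0.00471 and 0.104. With the first component as a covariate it was 0.109, 0.00584 and 0.0451. Its cluster mate miR-183 also fell with miR-223 (limma adjusted p = 0.0244, and 0.344 without those 4 libraries).

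**Figure D5:**
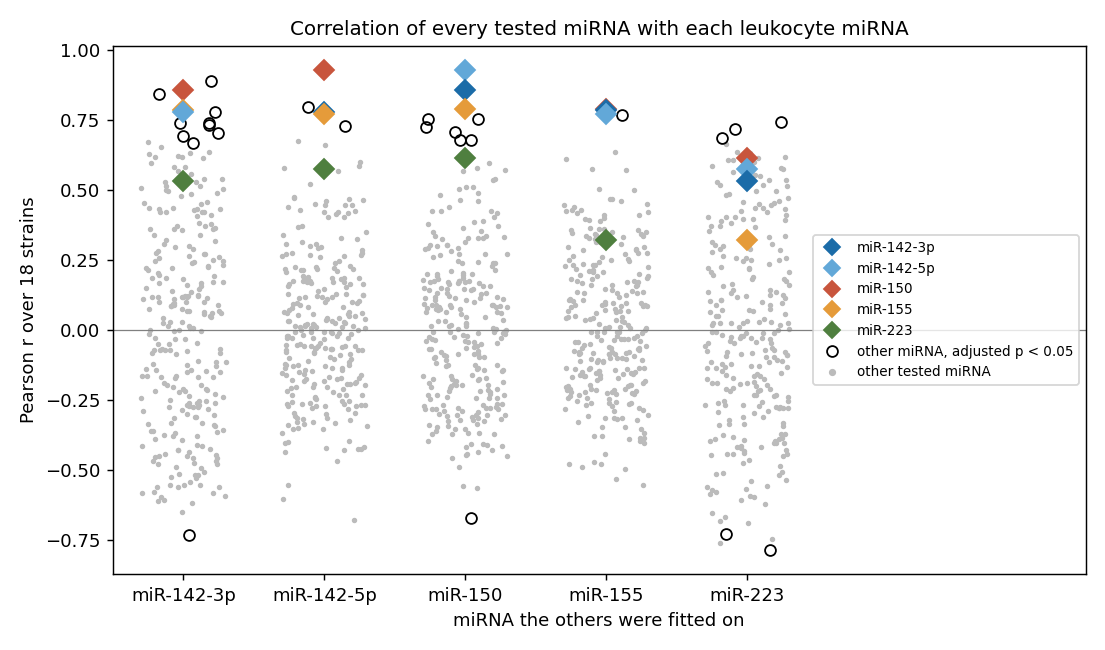
Pearson r over the 18 strains of every other tested miRNA with each of the 5 members. Diamonds are the other members, circles are non-members with a limma adjusted p under 0.05 and grey dots are the rest; miR-142-5p and miR-150 lie at 0.929, and the miR-223 diamonds lie among the grey dots.

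Other immune-related miRNAs did not pass with the members. Of 7 tested of 10 listed, among them miR-146a and miR-146b, which respond to inflammatory signalling, 0 were called with any of the 5 in limma, where 1.07% to 4.29% of all 280 miRNAs rose. At an unadjusted p under 0.05, 2, 1, 1, 0 and 1 passed with miR-142-3p, miR-142-5p, miR-150, miR-155 and miR-223, against 72, 21, 28, 16 and 63 of all 280. With lists this short a count of 0 is near the background. In strain 28, miR-146b and miR-21 of this list stood at 941 and 274 CPM, against panel medians of 38513 and 69864. How far this library sets their r is not given here. The median r of the list was -0.169, -0.01, 0.062, -0.065 and -0.13 with the members in that order. Over all 280 miRNAs it was 0.027, 0.007, 0.01, -0.003 and -0.024. With miR-142-3p, r in the list ran from -0.254 to 0.618.

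Some lists of markers of other cell types were high in some of the strains high in miR-150. The skeletal muscle list of 5, led by miR-1, summed to 161411, 303177 and 131433 CPM in strains 11, 14 and 27, against 22352 to 170034 in the others, so only strain 14 lay outside that range. The erythroid list of 3 summed to 491, 808 and 780 CPM there, against 206 to 580 elsewhere. The endothelial list of 2 summed to 14717, 22308 and 19483 CPM, against 8284 to 17240. Strain 11 lay inside both ranges, and miR-126-3p, called with no member, averaged 12442 CPM against 1327 for miR-126-5p. The smooth muscle and liver lists lay outside only in strain 14, at 60110 CPM against at most 57533 and at 375 CPM against at most 182. The mesenchymal, basal epithelial and neural lists stayed inside the range of the others in strains 11, 14 and 27. Of the muscle list, 0 of 5 passed limma with miR-150 and 5 of 5 had an unadjusted p under 0.05, against 9 of 280 (3.21%) rising and 28 of 280 with an unadjusted p under 0.05 over all miRNAs. Of the erythroid list, 1 of 3, miR-144, rose with miR-150 (limma adjusted p = 0.0399, and 0.345 without strain 27). The part of these cell types in the levels of the 5 members was not tested.

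The epithelial list, the labelled tissue's own, was present in every library, at 28509 to 54711 CPM summed over 5 miRNAs. 0 of 5 were called with any member in limma, a count near the background shares of 1.07% to 4.29%, and 1, 0, 0, 0 and 0 passed an unadjusted p under 0.05 with miR-142-3p, miR-142-5p, miR-150, miR-155 and miR-223, against 72, 21, 28, 16 and 63 of all 280.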

How the data were processed

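Small RNA of 18 pooled tumour libraries, 1 per strain, was sequenced with an Illumina Genome Analyzer IIx, per the series text. The deposited table holds log2 values made by the authors. The aligner BWA and the build mm9 come per the submitters' processing notes. How reads were assigned to miRNAs and length variants treated is not given in the sources used. Raising 2 to a deposited value gives a whole read number multiplied by a library constant, as seen in 100% of the 3818 table entries at or below 50 reads (tolerance 0.006 log2). The origin of these constants is unknown. 0 columns were left unmapped.

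Values were returned to the linear scale, sets of identical rows were counted once (571 distinct rows, none of the members among the 20 in such sets) and libraries were scaled by TMM (30% and 5% trims). Rows averaging 10 CPM or more entered the tests as log2(CPM + 1), which understates changes of low miRNAs. limma 3.58.1 in R 4.3.3 (trended, robust) regressed each other miRNA on each member, with Benjamini-Hochberg adjustment and a threshold of 0.05. No count test was run, because the deposited unit is log2. In simulated data for miR-142-3p (280 rows), 30 of 30 slopes of 1.0 and 27 of 30 slopes of 0.5 were recovered, with 0 false calls among 220. Apart from these slopes the simulated rows varied independently of each other. Real rows share patterns over the libraries, so the 0 false calls are not the error rate of the real calls. Python 3.11.15 with numpy 2.4.6 and scipy 1.17.1 was used.

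Named miRNAs were drawn from the members, their minor arms, the 3 highest and 3 lowest non-members by r, and called or abundant members of the lists. Not all of these are named, and most of the lowest by r are left out. Some others called are named after their values were seen. The members and the lists were chosen with earlier results of these data known. Alternatives tried were other scalings, pseudocounts and filters, ranks, covariates and left-out libraries. Ranks were planned in the same limma fit. Ordinary least squares on ranks was added after that fit was seen to give 0 calls with the members.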

Additional observations from a re-analysis of the deposited data

How the results depend on the processing

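The 10 relations between members kept the sign of r under every alternative run, except miR-155 with miR-223, which had r = -0.027 without strain 27, -0.201 without strains 11, 14 and 27 and -0.0987 without its 2 farthest libraries, strains 11 and 27, and miR-142-3p with miR-223, at -0.02 without its 2 farthest libraries, strains 10 and 27. The cause of changes below was not tested. In the planned limma fit on ranks, 0 miRNAs rose with any of the 5 members, and the 6 called pairs were lost, at values of 0.715 (miR-142-3p with miR-142-5p), 0.781 (miR-142-3p with miR-150), 0.754 (miR-142-3p with miR-155), 0.818 (miR-142-5p with miR-150), 0.602 (miR-142-5p with miR-155) and 0.635 (miR-150 with miR-155). With ordinary least squares on ranks, added after seeing those 0 calls, the counts rising were 8, 2, 3, 0 and 1 with miR-142-3p, miR-142-5p, miR-150, miR-155 and miR-223, and the last 2 pairs stayed lost at 0.602 and 0.635.

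Counts in this order were 66, 4, 3, 4 and 106 with total counts alone. The other scalings moved miR-142-5p to 3 (median of ratios) and miR-223 to 0 (upper quartile). A mean of 100 CPM gave 1 for miR-142-5p, 3 for miR-150, 2 for miR-155 and 1 for miR-223. There only the pair of miR-142 arms had a value in the fit on the member named first. In the fits on miR-150 and on miR-155 at that filter, 2 members rose, the miR-142 arms, and 0 rose in the fit on miR-223. No filter gave 8 and all identical rows kept gave 3 for miR-142-5p. The first principal component as a covariate gave 7 for miR-142-3p and 1 for miR-223. Without strains 10, 13, 14 and 20 the counts were 3 for miR-142-3p, 2 for miR-142-5p, 3 for miR-150 and 0 for miR-223, and miR-142-5p with miR-155 was lost at r = 0.767. Without strains 11, 14 and 27 they were 27, 0, 2, 0 and 11, and 5 pairs were lost: miR-142-3p with miR-142-5p (0.522) and with miR-155 (0.422), miR-142-5p with miR-150 (0.746) and with miR-155 (0.261), and miR-150 with miR-155 (0.246). miR-142-3p with miR-223 was called with total counts (0.693), and in the fit on miR-223 with that scaling all 4 other members were. For the arm ratio the count rising was 107 with total counts, 23 at a mean of 100 CPM, 18 with the component and 3 without strains 10, 13, 14 and 20. The count falling was 2, 20, 10 and 0 in the same settings in turn.

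Leaving out each library in turn gave counts of 4 to 22 for miR-142-3p, 1 to 6 for miR-142-5p, 2 to 10 for miR-150, 0 to 4 for miR-155, 0 to 8 for miR-223 and 27 to 40 for the arm ratio. The r of miR-142-3p was 0.678 to 0.812 with miR-142-5p, 0.795 to 0.897 with miR-150, 0.669 to 0.871 with miR-155 and 0.312 to 0.606 with miR-223. That of miR-142-5p was 0.900 to 0.951 with miR-150, 0.662 to 0.840 with miR-155 and 0.393 to 0.635 with miR-223. That of miR-150 was 0.696 to 0.866 with miR-155 and 0.455 to 0.672 with miR-223, and that of miR-155 with miR-223 was -0.027 to 0.424. No paired analysis was possible because each strain has 1 library. Depth limits miR-150 in strain 10, with 39 reads, and the order of strains for miR-223.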

Other observations

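The ratio of the miR-142 arms, chosen for a fit after its values were seen, was fitted in the same way as the members. On the log2 ratio of miR-142-3p over miR-142-5p, limma called 39 of 279 miRNAs rising (14.0%) and 29 falling (10.4%). miR-96, of the miR-183 cluster, had r = 0.906 (permutation p = 1e-05, the smallest the resamples can give), rho = 0.847 (permutation p = 3e-05) and a limma adjusted p of 2.25e-05. r was 0.890 without the 2 libraries farthest from the median ratio, strains 10 and 14. Without strains 10, 13, 14 and 20 it was 0.867, with a limma adjusted p of 0.0152. miR-186 and miR-24-1* came next, with r = 0.892 and 0.869. miR-152, a member of the miR-148 family, was lowest, with r = -0.85 and a limma adjusted p of 0.002. This value rests on the scaling, since r was -0.05 with total reads alone. With the first principal component as a covariate 18 miRNAs rose and 10 fell, and with total reads alone 107 rose and 2 fell. Without strains 10, 13, 14 and 20, 3 rose and 0 fell. Fewer libraries also make a call harder to reach. For miR-99a r was 0.775 with all libraries and 0.776 without those strains, where its limma adjusted p was 0.059. For miR-671-5p r fell from 0.694 to 0.284, with a limma adjusted p of 0.598. Why calls were lost was not tested.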
